A study of Mus musculus with 16 samples.

Results

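Skeletal muscle contracts when calcium leaves the sarcoplasmic reticulum and relaxes when it is pumped back, and 10 genes of this cycle are described here in quadriceps muscle and brown fat. They encode calcium pumps (Atp2a1, Atp2a2), small inhibitors of those pumps (Sln, Pln), proteins of the calcium store and its release channel (Casq1, Casq2, Ryr1, Trdn), the voltage sensor of the fibre surface (Cacna1s) and a cytosolic calcium buffer (Pvalb). The genes were chosen by name, and all 10 had a row in both tissue tables, out of 18657 genes listed in at least 1 of them. The mutant animals were male C57BL/6 mice homozygous for the uORF-TAA allele of Ppargc1a, and the controls were their wild-type littermates. All were housed at room temperature, and tissue was taken at 10 weeks of age. Ppargc1a encodes the coactivator PGC-1alpha, and uORF abbreviates upstream open reading frame. The comparison asks whether the allele alters muscle and brown fat transcripts. Each genotype had 4 libraries per tissue, 16 in all.

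Per library, about 11.4 to 31.8 M counts (estimated from size factors) were behind the quadriceps values and 11.0 to 17.8 M behind those of brown fat. The files hold 1 mean normalized count per gene over the 8 libraries of a tissue, so values per genotype are not given here. Fold changes are uORF-TAA over wild type, which assumes that the first genotype in each table's name is the numerator. In bulk tissue, fewer fibres and less RNA per fibre cannot be told apart. The labelled tissues carried their markers. Myh4, the fastest myosin, reached 101823 CPM (mean normalized count scaled to counts per M) in quadriceps and 3330 CPM in brown fat, while the uncoupling protein gene Ucp1 had 0.318 CPM in quadriceps, most of it from 2 libraries described with the reads, and 3709 CPM in brown fat. The mutated gene, Ppargc1a, did not pass the test in the authors' deposited table, with log2 fold changes of 0.06 ± 0.13 (SE) in quadriceps and 0.0016 ± 0.11 in brown fat, with an adjusted p of 1.00 in both by DESeq2.

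A nerve impulse depolarizes the fibre membrane, the voltage sensor opens the ryanodine receptor, and calcium bound to calsequestrin in the reticulum flows into the cytosol. The SERCA pumps return it at the cost of ATP. Sarcolipin, encoded by Sln, inhibits the pump and lets it split ATP without moving calcium, which releases heat, and for that reason it is studied in muscle thermogenesis beside the uncoupling protein of brown fat. Phospholamban, encoded by Pln, is the related inhibitor of heart and slow muscle.

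Both inhibitors are unusually short proteins. Their mouse coding sequences, from GENCODE M21, are shown in full because these small frames are the pump inhibitors compared here, with the start and stop codons in capitals.
Sln: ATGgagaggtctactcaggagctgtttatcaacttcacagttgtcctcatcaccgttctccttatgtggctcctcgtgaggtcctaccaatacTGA
Pln: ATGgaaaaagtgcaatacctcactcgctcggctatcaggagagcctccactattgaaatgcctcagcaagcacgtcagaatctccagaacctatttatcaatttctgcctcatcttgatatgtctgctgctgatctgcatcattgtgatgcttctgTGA
The Sln frame has 31 codons before its stop and the Pln frame has 52. No stretch of 75 bases, the read length, was shared between the GENCODE transcripts of Sln and Pln, of Atp2a1 and Atp2a2, or of Casq1 and Casq2. Pln lies opposite Cep85l and Atp2a1 opposite Rabep2 in that annotation. The kit was stranded, but no source used here says whether counting used the strand, and without it reads of such opposing genes cannot be told apart.

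In quadriceps the pump gene of fast fibres dominated. Atp2a1 had a mean normalized count of 737983, which was 3.51% of all counts and the second highest of 17539 genes. Its level was 10087 CPM per kb of merged exon. Pvalb, the buffer of fast fibres, followed at 6040 CPM per kb, and Casq1, the calsequestrin of fast fibres, at 1047. The release channel gene Ryr1 reached 432, Trdn, which ties calsequestrin to the channel, 384, and Cacna1s 191. The genes of slow and cardiac muscle were far lower, with Atp2a2 at 19.8 and Casq2 at 4.36. Sln and Pln came last, at 0.364 and 0.357 CPM per kb. Their mean normalized counts were 10.1 for Sln and 20.7 for Pln, at percentiles 30.8 and 36.1 of the table, so few reads stood behind either.

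Brown fat held most of these genes at a lower level, but Atp2a2, Sln and Pln at a higher one. Atp2a1 was again the most abundant member there, with 760 CPM per kb, and Pvalb had 363. Atp2a2 had 74.8, which placed it above Casq1 at 66.8. Ryr1 had 22.9, Cacna1s 15.2 and Trdn 12.3. Casq2 had 2.26, Sln 1.15 and Pln 0.703. Per kb of merged exon, Sln over Pln was 1.02 in quadriceps and 1.63 in brown fat. By longest transcript it was 0.863 in quadriceps and 1.38 in brown fat, so which inhibitor was higher in quadriceps turned with the length used. An error over libraries is not given for these means, other than the spread of Sln in quadriceps described with its reads.

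**Figure D1:**
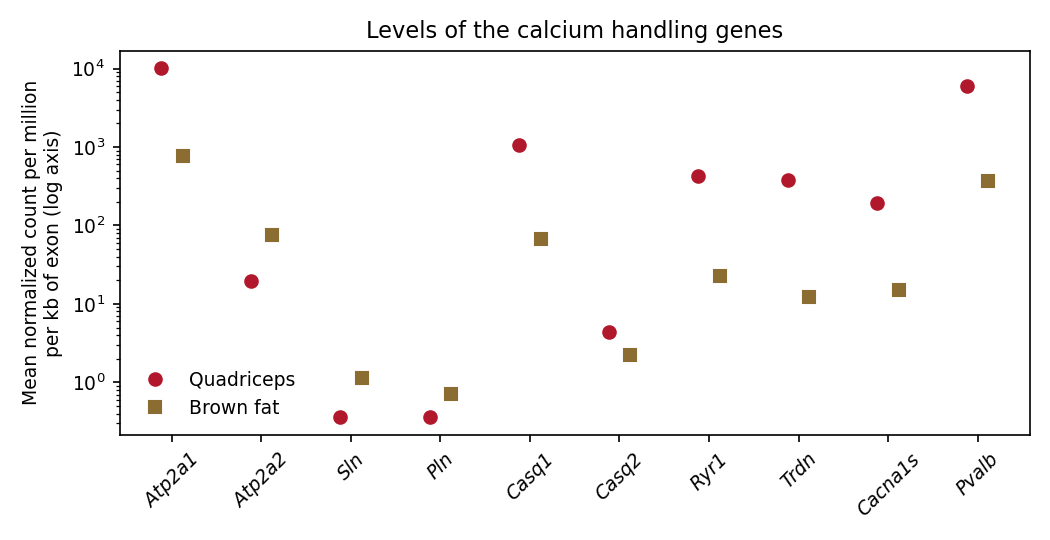
CPM per kb of merged exon (log axis) of the 10 genes in quadriceps (circles) and brown fat (squares), each point a mean over 8 libraries with no error available. Atp2a1 tops both tissues, at 10087 in quadriceps and 760 in brown fat, and Sln and Pln lie lowest.

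Set side by side, 7 of the 10 genes were higher in quadriceps and 3 in brown fat. Over all genes with a quadriceps p and a row in both tissues, 3999 were higher in quadriceps and 12869 in brown fat. The tables were normalized separately, so these ratios are descriptions with no test. On the log2 scale of CPM, quadriceps over brown fat, 6 members lay between 3.66 and 4.97: Cacna1s, Atp2a1, Casq1, Pvalb, Ryr1 and Trdn. Casq2 was at 0.95. The 3 others were higher in brown fat, with Pln at -0.98, Sln at -1.65 and Atp2a2 at -1.92. The fast and pan-fibre markers took 17.3% and 9.99% of quadriceps counts, and the median ratio was -0.91 over the 9282 genes whose mean reached 50 in both tissues. Relative to that median Sln was at -0.74, Atp2a2 at -1.01 and Pln at only -0.068. All of the 10 fast fibre markers (median 4.02) and all of the 12 pan-fibre markers (median 3.54) were higher in quadriceps. Of the 9 slow fibre markers 7 were higher in brown fat, or 6 relative to the median. Most of all genes were higher in brown fat as well, 12869 against 3999, and 9618 were so relative to the median. Myh7, the slow myosin, had 58.8 CPM in quadriceps and 168 CPM in brown fat.

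**Figure D2:**
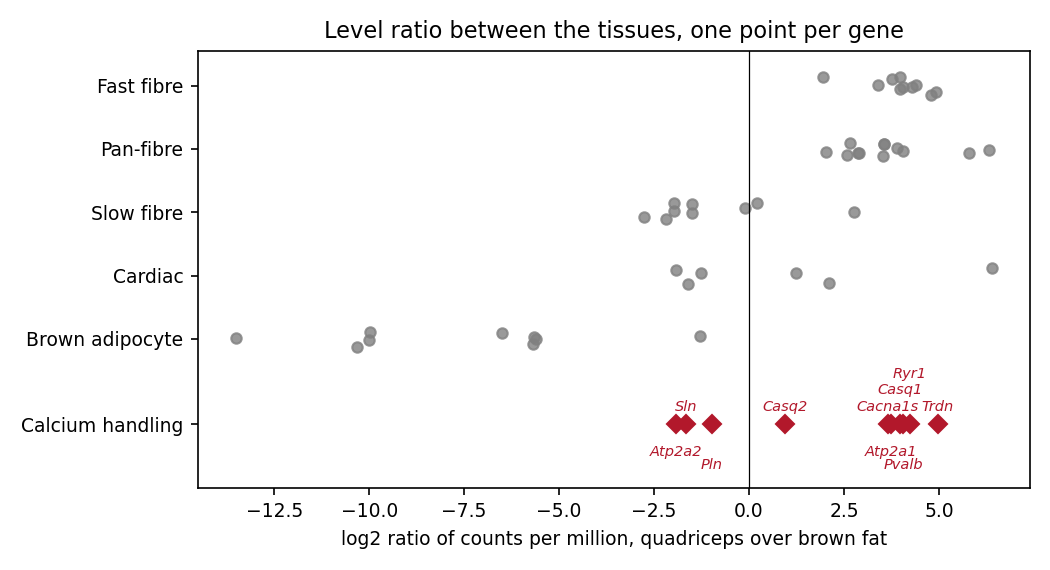
Log2 ratio of CPM, quadriceps over brown fat, with one point per gene for 5 marker lists and for the calcium handling genes (diamonds, named). Of the named genes, 6 stand with the fast and pan-fibre markers, while Atp2a2, Sln and Pln lie below 0. Most slow fibre markers and all 9 brown adipocyte markers also lie below 0, as do most of all genes (not shown).

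Ratios between paralogs within a tissue do not depend on how the tables were scaled. Per length, the fast pump gene Atp2a1 exceeded Atp2a2 by 511-fold in quadriceps and by 10.2-fold in brown fat. Atp2a2 also encodes the pump used by most non-muscle cells. Casq1 exceeded Casq2 by 240-fold in quadriceps and by 29.6-fold in brown fat. Cacna1s exceeded Cacna1c, the cardiac and smooth muscle channel, by 988-fold in quadriceps and by 22.1-fold in brown fat. Trdn was 22.9 times the level of its relative Asph in quadriceps, against 0.611 times in brown fat. Myoregulin, encoded by Mrln and listed under an older symbol, is a further pump inhibitor of skeletal muscle. It stood at 101 times the level of Sln per length in quadriceps and at 1.94 times in brown fat.

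Sln was low enough in quadriceps for its reads to be recovered library by library. A mean normalized count is the average over libraries of whole reads divided by each library's size factor, and 1 set of whole reads fitted the deposited Sln mean to its last digit. The libraries carry no genotype label in this form and are named by size factor, from library 1 (the deepest) to library 8. Sln had 41 reads in library 1, 5 in library 2, 7 in library 3, 16 in library 4, 5 in library 5, 2 in library 6, 4 in library 7 and 9 in library 8. An exact Poisson interval for counting error ran from 29.4 to 55.6 reads for library 1 and from 0.242 to 7.22 reads for library 6. Library 1 alone held 46.1% of the 89 reads. After division by size factors the values ran from 1.96 to 27.1 with a median of 5.71, so the highest library had 13.8 times the value of the lowest. Libraries 1, 4 and 8 were high, at 27.1, 15.1 and 16.6, and the other 5 lay at 6.52 or below. The mean was 7.68 without library 1, against 10.1 over all 8, and leaving out any other single library gave 9.18 to 11.3. The tissue ratio of Sln stayed below 0 without each quadriceps library, between -2.05 and -1.49 on the log2 scale of CPM. No brown fat library could be left out, so whether the ratio rests on a single one of those was not tested.

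Reads of brown adipocyte markers could be recovered in quadriceps too. Ucp1 had 17 reads each in libraries 4 and 8, with normalized counts of 16.01 and 31.28, and at most 3 reads in any other. Libraries 4 and 8 thus held 85% of its 40 reads, and they are among the 3 where Sln was high, while library 1, the highest for Sln, had 1 Ucp1 read. Without library 8 the quadriceps mean of Ucp1 was 3.18 in place of 6.70. The other 2 recovered brown adipocyte markers did not share this order, since Elovl3 was highest in library 7, at 24.5, with 0.942 in library 4 and 3.68 in library 8, and Otop1 had at most 4.91 anywhere. The part of brown fat cells in the Sln values was not tested. In brown fat 5 sets of reads fitted the Sln mean equally well, so no values per library are given there.

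The same recovery gave reads per brown fat library for some listed genes with a mean under 20. None of them was a member or a fast or pan-fibre marker. Mrln had normalized counts of 28.4, 26.0 and 17.5 in brown fat libraries 7, 1 and 3, and between 3.37 and 7.71 in the other 5. Atp2b3, a plasma membrane calcium pump that was 4.64 higher in quadriceps on the log2 scale of CPM, had 18.2, 13.0 and 14.9 in libraries 7, 1 and 3. It had 10.1 in library 6 and between 2.33 and 4.39 in the others. The cardiac marker gene Tnnt2 had 36.3, 18.7 and 13.1 in libraries 7, 1 and 3 and at most 3.30 elsewhere. Myh6, a cardiac myosin gene, had 27.2, 9.37 and 9.61 in those libraries and at most 7.86 elsewhere. The other recovered cardiac markers, Tnni3 and Mybpc3, were not higher in quadriceps and did not share this order. Tnni3 had 6.81, 6.49 and 2.62 in libraries 7, 1 and 3 but 6.60 in library 5. Mybpc3 had reads only in libraries 2 and 4. The sodium-calcium exchanger gene Slc8a2, which was not higher in quadriceps, ran from 4.66 to 11.0. Atp2b2, a plasma membrane pump gene that was also not higher in quadriceps, ran from 1.098 to 22.02 and was highest in library 5. Its next highest values were 18.0, 14.8 and 13.1 in libraries 1, 7 and 3, with 12.8 in library 8. Ryr3, a minor ryanodine receptor gene that was 6.18-fold higher in quadriceps, had 7.86 in library 3 but 0.721 in library 1 and 0 in library 7, from 17 reads in all. Of the 6 recovered genes that were higher in quadriceps, Mrln, Atp2b3, Tnnt2 and Myh6 were thus highest in libraries 1, 3 and 7, while Ryr3 was not and Calb2 had 1 read. These libraries and genes were singled out after their values were seen, and the genotype of the libraries is not known here. In brown fat the fast fibre markers summed to 0.756% of counts and the pan-fibre markers to 0.499%, with all 22 genes detected.

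**Figure D3:**
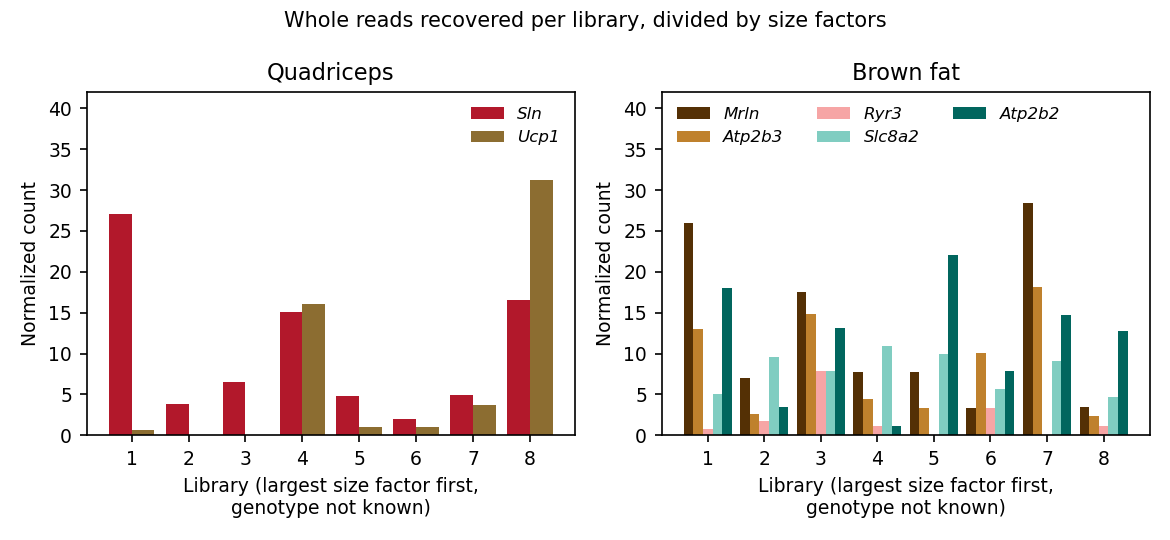
Normalized counts (whole reads over size factor) per library, in order of size factor and without genotype, for Sln and Ucp1 in quadriceps and for 5 genes in brown fat. Sln is highest in quadriceps library 1 (27.1) and Ucp1 in libraries 4 and 8. Mrln and Atp2b3 are highest in brown fat libraries 1, 3 and 7, while Ryr3 (7.86 in library 3) is not. Atp2b2 is highest in library 5 (22.0), followed by libraries 1 (18.0), 7 (14.8) and 3 (13.1).

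In quadriceps none of the 10 genes passed the deposited DESeq2 test of genotype, with 0 called at the 0.05 threshold on adjusted p and 0 by unadjusted p. Of all 17521 genes tested 0% were called, and 2% passed by unadjusted p, 0.942% higher and 1.06% lower. Of the members 5 lay above 0 and 5 below, with a median log2 fold change of 0.0045, against 0.0024 over all genes. Among the pumps, the authors' deposited table gave Atp2a1 a log2 fold change of -0.02 ± 0.10 (SE) and Atp2a2 0.09 ± 0.13. Sln had the smallest p of the set, 0.172 by DESeq2, with a log2 fold change of 0.12 ± 0.09 in the authors' deposited table and an adjusted p of 1.00. If the estimates are shrunken, Sln would be at 0.97 with an SE of 0.71, as described with the standard errors. Pln was at -0.07 ± 0.13 in the authors' deposited table. For the store and release genes the authors' deposited table listed Casq1 at -0.02 ± 0.10, Casq2 at 0.05 ± 0.12, Ryr1 at 0.03 ± 0.11 and Trdn at -0.08 ± 0.13. Cacna1s was at 0.03 ± 0.11 and Pvalb at -0.07 ± 0.09 in the authors' deposited table. Smooth muscle markers sat lower beside them in quadriceps, with 6 of 6 below 0 and 4 of 6 at an unadjusted p under 0.05 by DESeq2. Of the fast fibre markers 3 of 10 were above 0 there and of the slow 7 of 9, and their part in the members' values was not tested. Over all genes 51.7% were above 0 in quadriceps. Each member's value was smaller than its 95% half-width, and for Atp2a1 the interval ran from -0.23 to 0.18 on the deposited scale.

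In brown fat no member passed the test either. DESeq2's deposited adjusted p called 0 of the 7 members that had one, against 0.0863% of the 9272 genes with an adjusted p, and 0 of 10 passed by unadjusted p, against 2.07% of all genes. Sln, Pln and Casq2 have NA as adjusted p in the table, and their means lay under 106, the lowest mean with a value. Again 5 members lay above 0 and 5 below, with a median log2 fold change of -0.0029 against 0.0015 over all genes. Atp2a2 had the largest value, 0.16 ± 0.13 (SE) in the authors' deposited table, with an unadjusted p of 0.212 by DESeq2. Pln was at -0.07 ± 0.12, Casq2 at 0.06 ± 0.07 and Sln at 0.04 ± 0.05 in the authors' deposited table. The small error of Sln is taken up with the standard errors. The 6 others (Atp2a1, Casq1, Ryr1, Trdn, Cacna1s and Pvalb) lay between -0.018 and 0.012 in the authors' deposited table. Markers of muscle fibres sat beside them, with all 10 fast fibre markers below 0 (median -0.012) and 10 of 12 pan-fibre markers below 0 (median -0.0064), while 8 of 9 slow fibre markers were above 0 (median 0.035). All 9 brown adipocyte markers were above 0 as well (median 0.096). None of these markers had an unadjusted p under 0.05 by DESeq2. The medians of fast and pan-fibre markers were small beside their median standard errors, 0.068 and 0.066. Over all genes 51.2% were above 0. Markers of the same cells may vary together, so their counts are not independent. The part of fibre and adipocyte content in the members' values was not tested.

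**Figure D4:**
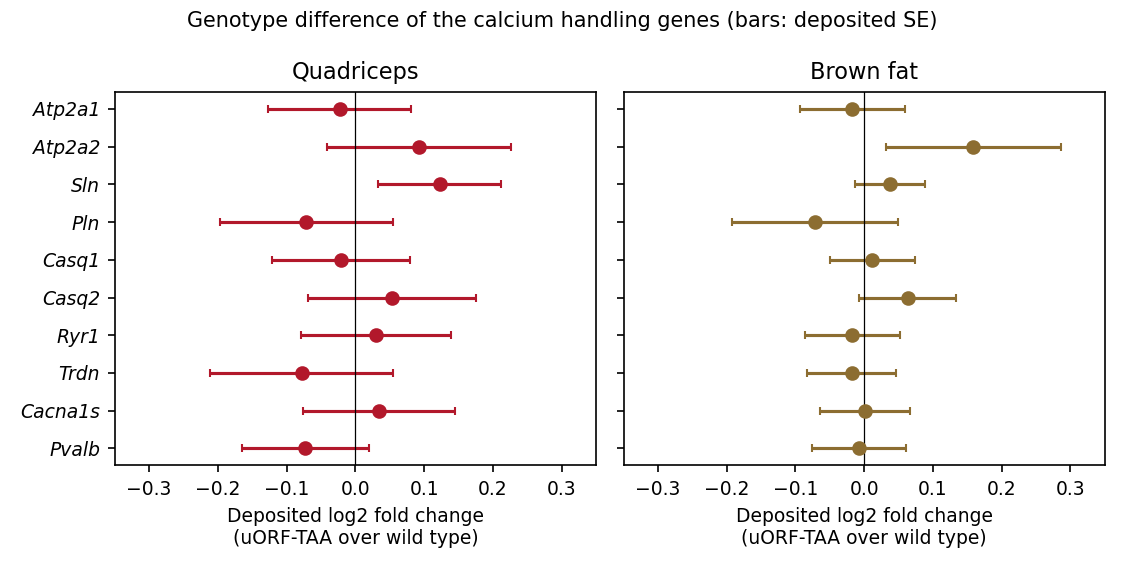
Deposited log2 fold changes (uORF-TAA over wild type) with standard errors of the 10 genes in quadriceps and brown fat. The largest are Sln in quadriceps (0.12) and Atp2a2 in brown fat (0.16), and neither passed the test. The bars do not allow for shrinkage.

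Most members had small standard errors in brown fat, and so did the muscle marker lists. The median there was 0.069 for the members, 0.068 for fast fibre markers and 0.066 for pan-fibre markers. It was 0.050 for slow fibre markers and 0.054 for cardiac markers, against 0.103 over all genes. There 7 of the 10 members had a smaller deposited standard error than 95% of genes within 1.5-fold of their mean count, against 1 of 10, Sln, in quadriceps. Casq1 in brown fat had 0.062, against a median of 0.10 over 1469 genes of like mean. Mrln, whose normalized counts differed by 8.42-fold between the highest and the lowest brown fat library, had a standard error of 0.08 in the authors' deposited table. The largest standard error was 0.135 in quadriceps and 0.127 in brown fat, and low means had the smallest ones, a form that shrunken estimates take. If they are shrunken, each standard error has a pair of solutions, one with a small and one with a large unshrunken fold change. For Sln in quadriceps the log2 fold change is then 0.14 (95% interval -0.06 to 0.34) or 0.97 (-0.42 to 2.35), and for Atp2a1 in brown fat it is -0.02 (-0.18 to 0.15) or -0.17 (-1.68 to 1.33). For Atp2a1 and other genes with many reads the deposited columns do not say which holds. The recovered reads do bear on Sln in quadriceps, where the first solution has an SE of 0.10. Counting error of its 89 reads alone would be larger than that. Of the pair, only the second can therefore hold for Sln in quadriceps. The same reasoning applies to Sln in brown fat, whose first SE was 0.05 at a mean normalized count of 19.4. It also applies to Mrln in brown fat, whose first SE was 0.09 with 109 reads. Intervals of the second kind would leave room for more than a doubling in either direction of Atp2a1 in brown fat.

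**Figure D5:**
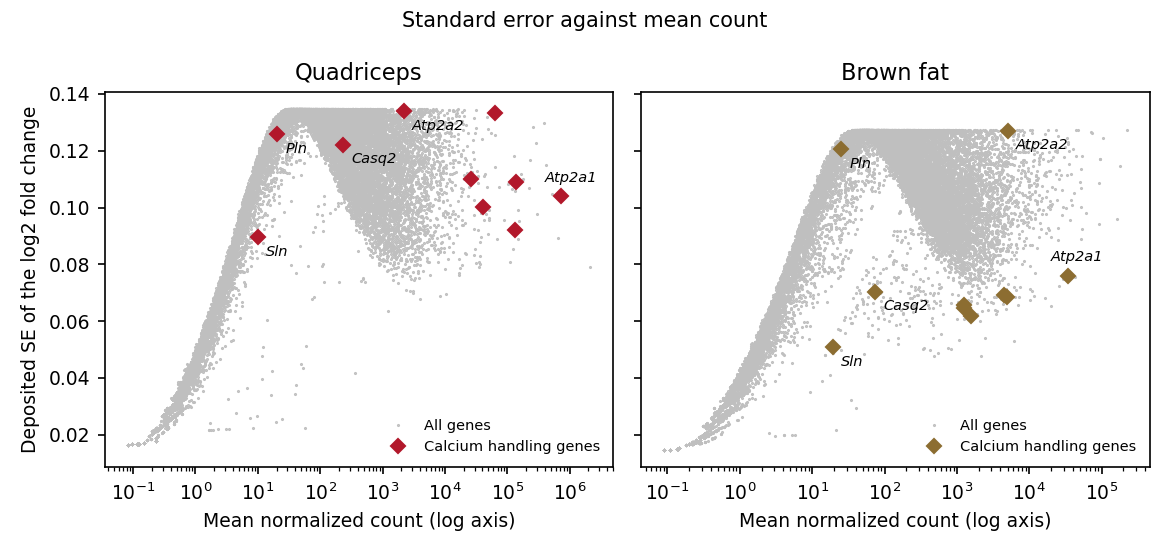
Deposited standard error of the log2 fold change against the mean normalized count (log axis) for all genes (grey) and the 10 calcium handling genes (diamonds). In brown fat 7 of the 10 lie below 95% of genes of like mean, while in quadriceps only Sln does.

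The genotype effect was then compared between the tissues, taking quadriceps less brown fat. By a normal test of the difference 0 of 10 members passed, adjusted or not, against 0% of 16844 genes by adjusted p and 1.16% by unadjusted p. With the brown fat sign the other way 0 members and 0.0356% of genes passed by adjusted p. Sln had the smallest p of the 10, with a difference of 0.08 ± 0.10 (SE) on the log2 scale and an interval from -0.12 to 0.29. That difference and its interval rest on the deposited values and do not allow for shrinkage. By the second unshrunken solution Sln would be at 0.97 (SE 0.71) in quadriceps and 0.91 (SE 1.22) in brown fat. The interval of the difference would then be far wider. Pln had the same log2 fold change, -0.07, in both tissues in the authors' deposited table. The tissues may come from the same mice, which this test does not allow for.

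Beyond the 10 genes, 70 further genes of calcium transport and signalling were measured, and by DESeq2's adjusted p 0 of all 80 were called in quadriceps and 0 of the 58 that had one in brown fat. In quadriceps 3 of the 80 were higher and 0 lower at an unadjusted p under 0.05, against 0.942% and 1.06% of all genes. Slc8a3 and Slc8a1, the sodium-calcium exchangers of the surface membrane, had log2 fold changes of 0.29 ± 0.12 (SE) and 0.27 ± 0.12 in the authors' deposited table, and Nfatc2, a calcineurin-responsive transcription factor, had 0.30 ± 0.13. In brown fat 1 was higher and 1 lower, against 0.918% and 1.15% of all genes. Itpr2, an inositol trisphosphate receptor that releases calcium from the endoplasmic reticulum, had 0.24 ± 0.09 and Slc8b1, the mitochondrial sodium-calcium exchanger, -0.28 ± 0.11 in the authors' deposited table. Adjusted p was 1.00 for all 5 of these genes by DESeq2. Itpr2 was at -0.15 ± 0.10 in quadriceps in the authors' deposited table.

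By group, the 8 measured genes of the pump and its regulators had a median log2 fold change of -0.02 in quadriceps and -0.0010 in brown fat. Mrln was at 0.15 ± 0.13 in quadriceps and -0.05 ± 0.08 in brown fat in the authors' deposited table. The 20 genes of the junctional reticulum had medians of 0.0040 in quadriceps and -0.0013 in brown fat. In quadriceps Jph2, which holds the reticulum to the surface membrane, was at 0.16, the calcium sensor gene S100a1 at -0.14 and the luminal chaperone gene Calr at -0.10 in the authors' deposited table. In the voltage sensor complex 6 of 8 genes were above 0 in each tissue. Its subunits Cacng1 and Cacng6 were at 0.18 and 0.20 in quadriceps, and Cacna1c at 0.19 in brown fat, in the authors' deposited table. Of the 8 store-operated entry and inositol trisphosphate receptor genes 5 were above 0 in quadriceps and 7 in brown fat. The surface channel genes Orai1 and Orai3 were at 0.20 and 0.17 in quadriceps in the authors' deposited table. Of the 10 mitochondrial calcium genes 5 were above 0 in quadriceps and 8 in brown fat, where Mcu, the uniporter pore, was at 0.18 in the authors' deposited table. Of the 15 calcineurin, CaMK and NFAT genes 9 were above 0 in quadriceps and 6 in brown fat, where Camk2d was at 0.19 in the authors' deposited table. Of the 7 plasma membrane extrusion genes 5 were above 0 in quadriceps and 4 in brown fat, and of the cytosolic buffer genes 3 of 5 in quadriceps and 1 of the 4 with a fold change in brown fat. Over all genes 51.7% were above 0 in quadriceps and 51.2% in brown fat.

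The listed genes whose tissue ratio lay nearest that of Sln were Calb1 (-1.65), Smtn (-1.62), Mybpc3 (-1.61), Mylk (-1.60) and Smdt1 (-1.74), on the log2 scale of CPM, quadriceps over brown fat. This likeness rests on 2 tissues, and Calb1 and Mybpc3 had mean normalized counts of 1.07 and 0.250 in quadriceps and 2.04 and 0.464 in brown fat.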

How the data were processed

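RNA of both tissues was sequenced from one end (75 bases, stranded mRNA kit, per the labels' protocols). Per the submitters' processing notes STAR 2.5.1b, DESeq2 1.10.1 and the build mm9 were used. Annotation and counting tool: not given in the sources used here. Per the file headers, the authors deposited for each gene a mean normalized count (a signal averaged over the libraries of a tissue), a log2 fold change with its standard error, the Wald statistic (a score), a p-value and an adjusted p-value. Brown fat signs were inverted, since that table names wild type first. No header names the numerator, and if the reading fails for a tissue every direction there turns over.

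Levels are CPM computed from the mean normalized counts of each table, also per kb of merged exon (GENCODE M21, GRCm38). No coordinates are given because the builds differ. Size factors came from genes detected by 1 read in all (at least 61 for each of 8 libraries). For 32 listed low genes (mean under 20) all sets of whole reads equal to the deposited mean within its last printed digit were searched, and 29 had a single solution. For Sln in quadriceps 0.034 accidental matches were expected. For the tissue comparison, the fold changes were subtracted, their variances added, and a normal p (two-sided) adjusted by Benjamini-Hochberg; the tissues were treated as independent. Unshrunken fold changes assumed a normal prior whose strength was read from each table's largest standard error. Procedures were tested on simulated data. Intervals on reads cover counting error only.

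The members and lists were chosen with earlier results of these data known. Genes named are the 10 members, Ppargc1a, up to 3 listed genes of smallest p per pathway list and tissue (not all are printed), tissue markers, paralogs and the 5 genes nearest Sln in tissue ratio. Atp2b2, Atp2b3, Slc8a2, Tnnt2, Myh6, Tnni3, Calb2, Elovl3 and Otop1 were picked after their values were seen. So was the choice of Mrln, Ryr3, Ucp1 and Mybpc3 for their reads. Listed genes without a row (Strit1, Erln, Sarf, Nppa, Nppb, Myl7) were not analysed here. Python 3.11.15, scipy 1.17.1 and pandas 2.3.3 were used.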

Additional observations from a re-analysis of the deposited data

How the results depend on the processing

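The count of called members was 0 in each tissue as deposited, when adjusted over every gene with a p, with a minimum mean of 10 or 50, at a threshold of 0.10, at an unadjusted p under 0.05, and without the 100 genes of largest mean (an alternative chosen after seeing the data). None of these settings could call a member, because adjustment never lowers a p. The smallest unadjusted p of a member by DESeq2 was 0.172 in quadriceps and 0.212 in brown fat. The difference between tissues also called 0 members under the other sign for brown fat, or with a minimum mean of 50 in each tissue. With that minimum mean it could call none, since the smallest unadjusted p of a member was 0.412 by the normal test. Reading the other genotype as numerator turns every sign, and the median log2 fold change of the members becomes -0.00445 in quadriceps and 0.00288 in brown fat. Less the median of genes whose mean reached 50, Cacna1s in brown fat turned to -0.0048, and no other member changed sign. Under the other sign for brown fat, the difference between tissues turned to 0.25 for Atp2a2 and to 0.12 for Casq2. The median level ratio of the members, 3.69 on the log2 scale, was 4.25 without the 50 most abundant genes of each tissue and 4.60 when scaled by the median ratio, and all 10 members kept their sign. Paralog ratios by longest transcript (chosen after seeing the data) moved by less than 1.5-fold, but Sln over Pln in quadriceps crossed 1, at 0.863 in place of 1.02. Both unshrunken forms keep each sign and p by construction and so test neither. No paired analysis was possible because the tables hold no values per labelled library, and no genotype comparison could leave out a library for the same reason. Levels without single libraries could be had for genes with recovered reads (chosen after seeing the data), and ran from 7.68 to 11.3 for Sln and from 3.18 to 7.65 for Ucp1 in quadriceps, and from 10.38 to 13.95 for Mrln in brown fat. Depth limits Sln and Pln most, at 10.1 and 20.7 mean normalized counts in quadriceps.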
